A study of Caenorhabditis elegans with 10 samples.

Results

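The comparison of adult worms with larvae of the third larval stage (L3) in wild-type Caenorhabditis elegans rested on 5 of the 10 arrays of the series, chosen by their titles: 3 adult and 2 larval arrays. Both groups were whole worms of the Bristol variety, kept at 20 °C on agar and fed the OP50 strain of Escherichia coli. They differed by developmental stage, and no mutant array entered the comparison. Of the 22625 probe sets on the array, 77 were controls and 22548 were compared. The titles call the replicates biological. The labels give neither the age of the adults within adulthood nor the hour within L3. The series was made to compare wild type with a mutant of nep-1, a neprilysin that cleaves peptides at the cell surface, so its deposited gene lists were chosen for genotype and not for stage.

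As background, the worm passes through larval stages separated by moults, and in each one the epidermis lays down a new collagen cuticle beneath the old one. Many cuticle, apical matrix and hedgehog-related genes of the epidermis and pharynx rise and fall once in every larval stage, and moulting ends at adulthood. Hermaphrodites make sperm before oocytes. As adults they have a mature germ line and carry yolk and embryos, which L3 larvae do not have.

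Expression is given as the authors' log2 RMA values, in which a difference of 1 is a 2-fold difference. Present calls, the authors' mark that a transcript was detected, numbered 11373, 12506 and 13661 on adult arrays 1, 2 and 3, and 11766 and 12983 on larval arrays 1 and 2. Adult array 3 stood apart. Across probe sets, which are not independent, its correlation with the larval arrays was 0.901 and 0.909, whereas adult arrays 1 and 2 had correlations of 0.822 to 0.837 with them. Adult arrays 1 and 2 correlated with each other at 0.972 and with adult array 3 at 0.954 and 0.949, and the larval arrays correlated at 0.964. The descriptions name adult arrays 1 and 2 and larval array 1 in an N2 style, and adult array 3 and larval array 2 in a WT style. The spike-in control bioB measured 7.86, 7.70 and 6.86 on the adult arrays, against 5.14 and 7.42 on the larval arrays. As a measure of RNA quality, the C. elegans control transcripts had a median log2 value of their 3' over their 5' probe sets of 0.055, 0.070 and 0.25 on the adult arrays, against −0.13 on each larval array. The part of these differences in the stage comparison was not tested. Results that rest on adult array 3 are therefore given with and without it.

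A large share of the transcriptome differed by stage, and the large differences ran mainly one way. In limma, 2820 probe sets were higher in adults (12.5% of those tested) and 1382 were lower (6.13%), together 4202 (18.6%) at a Benjamini-Hochberg adjusted p under 0.05. A higher share of the calls, 67.1%, was on the adult-high side, but this split was not stable: it was 49.95% after quantile normalisation of the 5 arrays and 94.4% in the authors' scaled signals. The median difference over all probe sets was −0.07, and −0.18 in the scaled signals. Called rises had a median of 1.67 and reached 8.98, while called falls had a median of −1.19 and reached −4.34. At 16-fold or more, 208 probe sets were higher in adults and 22 were lower. All 208 of these rises were called, against 2 of the 22 falls. At 64-fold or more there were 47 rises and 0 falls. Without adult array 3 the counts were 244 rises and 102 falls at 16-fold or more, and 57 rises and 4 falls at 64-fold or more.

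**Figure D1:**
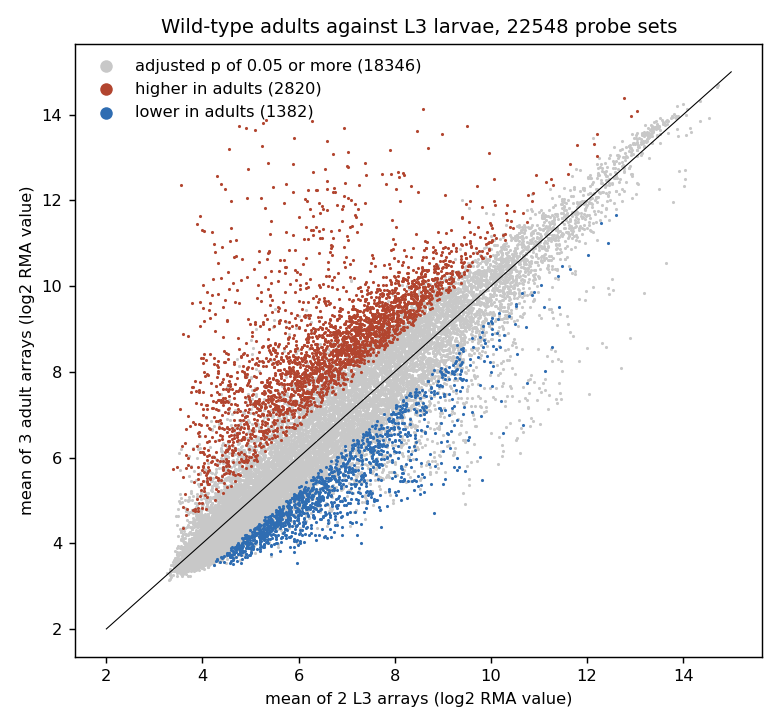
Mean log2 RMA value of the 3 adult arrays (vertical axis) against that of the 2 L3 larval arrays (horizontal axis), 1 point per probe set, with the line of equal values. The 2820 probe sets called higher in adults by limma include a group far above the line at low larval values, while the 1382 called lower lie closer to the line.

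Differences between stages were larger than those between arrays of a stage. Between pairs of adult arrays, 1.41% to 2.06% of probe sets differed by 4-fold or more, and between larval arrays 1 and 2 it was 0.958%. Between an adult and a larval array the share was 8.95% to 11.3% for adult arrays 1 and 2, but 4.07% to 4.44% for adult array 3. Every adult array lay above both larval arrays for 6113 probe sets (27.1%) and below both for 6561 (29.1%), and with a mean difference of 2-fold or more as well for 3361 (14.9%) and 1677 (7.44%). The excess of higher over lower in this count was nearly gone after quantile normalisation, at 2603 and 2406, and was reversed in the scaled signals, at 2278 and 2722. The calls were made on these same arrays, so their direction within a naming style is largely fixed by the choice and is no separate evidence. Within styles, the called rises had medians of 1.97 in the N2-named and 1.23 in the WT-named arrays, and the called falls −1.26 and −1.01.

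Detection calls counted the transcripts seen at 1 stage alone. Present on all 5 arrays were 9097 probe sets (40.3%) and absent on all 5 were 6425 (28.5%). A transcript gained in adults, present on all 3 adult arrays and absent on both larval arrays, was found for 493 probe sets (2.19%). Their median difference was 2.42, and 331 of them were called higher (against 12.5% of all probe sets). The reverse, absent on all 3 adult arrays and present on both larval arrays, was found for 147 (0.652%). Their median was −0.94, and 71 of them were called lower (against 6.13%). Both groups were chosen by detection calls on these same arrays, so their direction and share called are largely fixed by the choice. Most called rises, 1943 or 68.9%, were present on all 5 arrays, and 26 were absent on all 5. Of the called falls, 410 (29.7%) were present on all 5 arrays and 262 (18.96%) absent on all 5, so that those 262 compare values near background. Without adult array 3 the order of these counts turned round, with 576 gained and 766 lost, and without larval array 1 they were 624 and 700. Of the 766 lost, 591 were present on adult array 3 as well as on both larval arrays.

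Adult array 3 lay near the other adults for transcripts high in adults and near the larvae for transcripts high in larvae. Its position was set between 0, the larval mean, and 1, the mean of adult arrays 1 and 2. Over the 1386 probe sets that were at least 4-fold higher in adult arrays 1 and 2 than in larvae, its median position was 0.74 (quartiles 0.62 and 0.86), and 10.5% were nearer to the larvae. Over the 665 that were at least 4-fold lower, its median position was 0.37 (quartiles 0.20 and 0.55), and 68.4% were nearer to the larvae. For 290 of these 665 (43.6%) adult array 3 was within 2-fold of the larval mean. Each of the other adult arrays was placed in the same way, with 1 as the mean of the adult arrays other than itself, adult array 3 included. Adult array 1 then had medians of 1.04 over 1013 higher and 1.35 over 304 lower probe sets, and adult array 2 medians of 1.16 over 944 and 1.33 over 321. The share nearer to the larvae was 4.54% and 16.6% of the higher probe sets on adult arrays 1 and 2, and 0.987% and 0.623% of the lower ones. What set adult array 3 apart was not tested. Without adult array 3, limma called 3885 probe sets higher (17.2%) and 2552 lower (11.3%), which included 2726 of the 2820 rises and 1264 of the 1382 falls called with it.

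**Figure D2:**
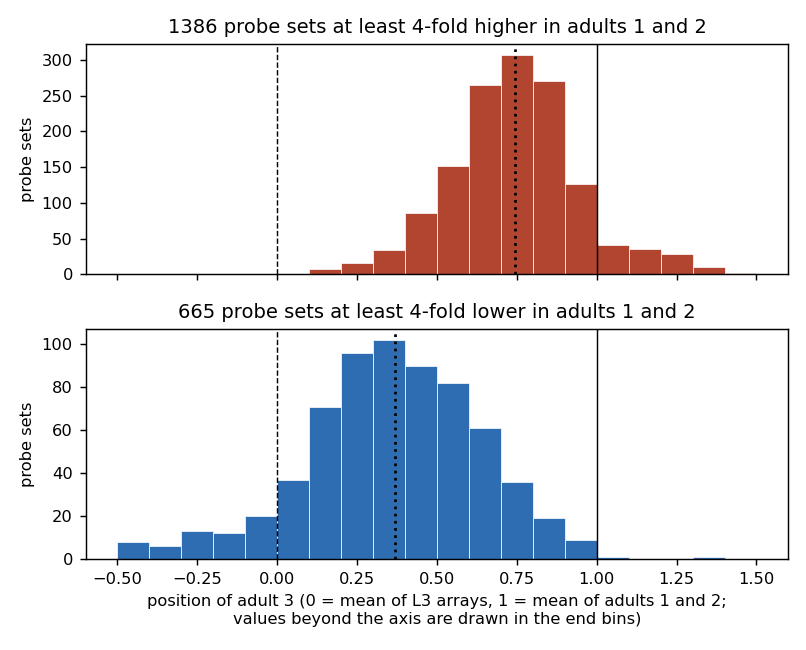
Histograms of the position of adult array 3 for the 1386 probe sets at least 4-fold higher (top) and the 665 at least 4-fold lower (bottom) in adult arrays 1 and 2 than in larvae. The dashed line is the larval mean, the solid line is the mean of adult arrays 1 and 2, and the dotted line is the median, at 0.74 in the top panel and 0.37 in the bottom panel.

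Gene numbers were available for the probe sets of the authors' lists of genotype changes, and 152 of these 196 probe sets named 145 genes. A gene with several probe sets is given by the one of highest mean level. Of these 145 genes, 8 were called higher in adults (5.52%, against 12.5% of all probe sets) and 18 lower (12.4%, against 6.13%). Without adult array 3 the counts were 9 higher (6.21%, against 17.2%) and 83 lower (57.2%, against 11.3%). Nearly all of these genes were listed because their level in larval wild-type arrays differed from that in mutant larvae, and the same wild-type arrays enter the stage comparison. The counts are therefore a description of the lists and say nothing on genes that are not in them. In whole worms, fewer cells of a type and less transcript per cell cannot be told apart.

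The neprilysin gene nep-1 was lower in adults. It measured 6.01, 6.85 and 7.32 on the adult arrays, against 8.19 and 9.17 on the larval arrays. It was present on all 5, and the stages did not overlap. The difference was −1.95 ± 0.47 (SE), a 3.87-fold lower level in adults (limma adjusted p = 0.0419). It was −2.25 without adult array 3, −1.76 in the N2-named arrays and −1.85 in the WT-named arrays. An exact two-sided permutation test of a single gene over 5 arrays has 10 arrangements and cannot go below p = 0.2.

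Among genes higher in adults, vha-18, which encodes a subunit of the proton-pumping vacuolar ATPase, had the largest difference of a named gene. It measured 10.18, 10.45 and 9.51 on the adult arrays, against 6.24 and 6.76 on the larval arrays. Every adult array was far above both larval arrays, with a difference of 3.55 ± 0.34 (SE, limma adjusted p = 0.00489). Y51H7C.1 was present on all 3 adult arrays at 9.54, 8.42 and 9.54, and absent on both larval arrays at 5.89 and 5.70. Because larvae gave no detected signal, it was at least 10.3-fold higher in adults (limma adjusted p = 0.00764).

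Other called rises were seen in acdh-2, rskn-1 and atgl-1. The acyl-CoA dehydrogenase gene acdh-2, of fatty acid breakdown, measured 7.20, 7.89 and 7.72 in adults, against 4.64 and 4.33 in larvae, a difference of 3.12 ± 0.27 (limma adjusted p = 0.00364). rskn-1, a homologue of the ribosomal S6 kinases, measured 9.46, 9.72 and 9.03 in adults, against 7.01 and 7.04 in larvae, a difference of 2.38 ± 0.25 (limma adjusted p = 0.00648). atgl-1, the adipose triglyceride lipase that releases fatty acids from stored fat, measured 8.88, 9.19 and 8.69 in adults, against 6.78 and 7.69 in larvae, a difference of 1.69 ± 0.33 (limma adjusted p = 0.0248). Adults and larvae did not overlap for any of these genes, and in the RMA values the gap was widest for acdh-2. In the scaled signals its gap was the narrowest, with 173.4 on the lowest adult and 121.1 on the highest larval array. The same values were 667.4 and 212.2 for rskn-1, and 560.5 and 260.7 for atgl-1. M01H9.3 differed by 1.20 ± 0.21 (limma adjusted p = 0.0203) and C35A5.3 by 0.86 ± 0.22 (limma adjusted p = 0.0496), the smallest called rise among the named genes. R11A8.1 at 1.02 ± 0.30 and C56E6.2 at 0.57 ± 0.27 did not overlap between stages but did not pass. R11A8.1 passed without adult array 3, at 1.26 (limma adjusted p = 0.0163). All 8 called rises also passed without adult array 3.

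One collagen gene was high in adults. col-142 measured 11.66, 10.15 and 9.76 on the adult arrays, against 8.51 and 7.24 on the larval arrays, where it was called present on larval array 1 and absent on larval array 2. The stages did not overlap, and the difference was 2.65 ± 0.66 (limma adjusted p = 0.0445), or 2.40 in the N2-named and 2.51 in the WT-named arrays. It was the single one of 10 named col genes above its larval level.

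**Figure D3:**
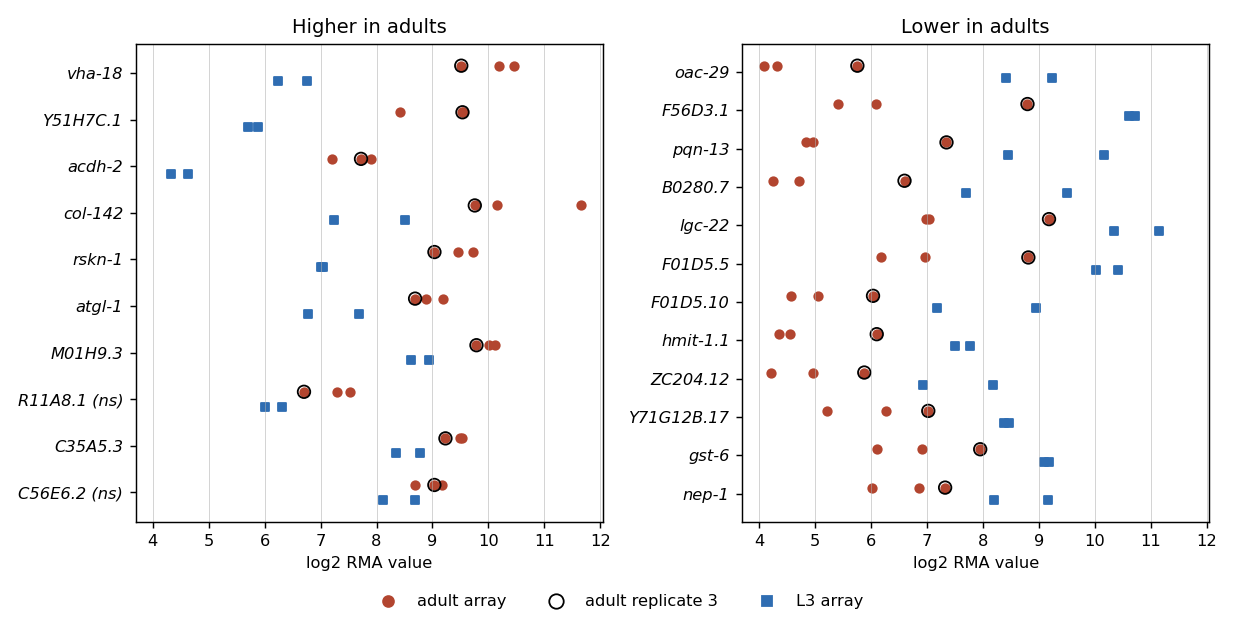
Log2 RMA values on each array for the named genes highest in adults (left panel, including 2 marked ns that did not pass limma) and the 12 named genes with the largest called falls (right panel), with adult arrays as circles and L3 larval arrays as squares. In each gene of the right panel adult array 3, ringed, is the adult array nearest to the larvae. In the left panel it lies between the other adults in Y51H7C.1, acdh-2 and C56E6.2, and is the lowest adult array in the rest. In R11A8.1 it lies nearer to the larvae than to the other adults.

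Sperm transcripts were represented by a pair of probe sets that the files assign to both msp-64 and msp-10. Major sperm proteins are the abundant cytoskeletal proteins of nematode sperm, and their genes are nearly identical, so these probe sets cannot be assigned to a single gene. They were picked out after their values had been seen. Probe set 172852_x_at measured 13.55, 10.12 and 12.92 on the adult arrays, against 6.26 and 7.19 on the larval arrays. Adult array 2 was much the lowest adult array but still far above the larvae. The difference was 5.47 ± 1.02 (limma adjusted p = 0.0229), a 44.5-fold higher level in adults, and the other probe set differed by 5.44 ± 1.01 (limma adjusted p = 0.0226). Both were present on all 5 arrays. On adult array 3 these transcripts lay between the levels of the other adults. Other defining adult genes, such as the vitellogenins and eggshell genes, were not named in the files and were not analysed here.

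Falls that passed the test were led among the named genes by oac-29. This gene, of a family of membrane O-acyltransferases, measured 4.31, 4.08 and 5.75 on the adult arrays, against 8.41 and 9.23 on the larval arrays. It was absent on adult arrays 1 and 2 and present on the others, with a difference of −4.10 ± 0.56, a 17.2-fold lower level in adults (limma adjusted p = 0.0111). pqn-13, of a family rich in glutamine and asparagine with members in the pharyngeal cuticle, measured 4.84, 4.95 and 7.35 in adults, against 8.45 and 10.16 in larvae, a difference of −3.59 ± 0.90 (limma adjusted p = 0.0456). lgc-22, a ligand-gated ion channel gene, measured 6.98, 7.04 and 9.18 in adults, against 10.33 and 11.15 in larvae, a difference of −3.01 ± 0.73 (limma adjusted p = 0.0415). In each of these genes adult array 3 was well above the other adult arrays and still below both larval arrays.

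hmit-1.1, a transporter of myo-inositol, was absent on all 3 adult arrays at 4.56, 4.36 and 6.10, and marginal and present on the larval arrays at 7.77 and 7.49. It was at least 6.18-fold lower in adults (limma adjusted p = 0.0289). Y71G12B.17 was likewise absent on the adult arrays and was at least 4.77-fold lower (limma adjusted p = 0.0364). gst-6, a glutathione S-transferase, measured 6.91, 6.11 and 7.95 in adults, against 9.09 and 9.18 in larvae, a difference of −2.15 ± 0.52 (limma adjusted p = 0.0425). Among genes with no name beyond their sequence, the differences were −3.90 for F56D3.1, −3.41 for B0280.7, −2.90 for F01D5.5, −2.85 for F01D5.10 and −2.54 for ZC204.12, each past the limma threshold and each without overlap of stages. Smaller called falls were −1.60 ± 0.38 for phat-4, of the pharyngeal gland, and −1.30 ± 0.30 for hrg-7, an aspartic protease gene of haem signalling. They were −1.36 ± 0.19 for the cytochrome P450 gene cyp-35C1 and −1.02 ± 0.24 for slc-17.3, a solute carrier. The cytochrome measured 7.0, 6.99 and 7.24 in adults, against 8.34 and 8.53 in larvae, the tightest of these differences.

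Cuticle genes had some of the largest mean differences, but hardly any passed with adult array 3 in the fit. col-90, a cuticle collagen gene, measured 6.71, 5.91 and 11.62 on the adult arrays, against 12.37 and 13.04 on the larval arrays. Adult array 3 was close to the larvae and far from the other adults. Its mean difference of −4.62 ± 1.68 was the most negative of all 22548 probe sets and did not pass (limma adjusted p = 0.105), whereas without adult array 3 it was −6.39 ± 0.38 (limma adjusted p = 0.000911). col-41, of the same family, measured 7.48, 6.74 and 11.54 on the adult arrays, against 12.13 and 12.66 on the larval arrays. Over the 10 named col genes, which form the collagen fibrils of the cuticle, the median difference was −2.18 with 9 below 0, against −0.07 with 54.3% below 0 over all probe sets. 1 was called higher, col-142 (12.5% of all probe sets), and 0 lower (6.13%), and without adult array 3 there were 7 called lower (11.3%), with a median of −3.43. Their median level was 7.06, 6.58 and 10.63 on the adult arrays, against 8.38 and 11.27 on the larval arrays. The larval arrays also differed from each other in these genes, with 9 of 10 higher on larval array 2, by a median of 2.59. col-48 measured 6.07, 4.99 and 11.16 on the adult arrays, against 8.25 and 11.83 on the larval arrays, so that adult array 3 lay above larval array 1.

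The body-shape collagens dpy-5, rol-6 and sqt-2, named for the short or rolling shape of their mutants, had a median of −3.64. dpy-5 measured 7.503, 6.40 and 12.48 in adults, against 12.50 and 13.29 in larvae. rol-6 measured 8.005, 7.43 and 10.60 in adults, against 11.84 and 12.80 in larvae, a difference of −3.64 ± 0.96 that just missed the threshold (limma adjusted p = 0.0505). Adults lay below larvae without overlap for all 3 (29.1% of all probe sets). With adult array 3, 0 passed (6.13% called lower), but all 3 did without it (11.3%), at −5.94 for dpy-5, −4.60 for rol-6 and −3.91 for sqt-2.

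Genes of the epidermal apical matrix and the pharyngeal cuticle had the same pattern by array. The hedgehog-related genes grl-5, grl-7 and grd-5 and the patched-related genes ptr-6 and ptr-18 had a median of −2.82, all 5 below 0. 0 of them passed (6.13% of all probe sets called lower), and 3 did without adult array 3 (11.3%). In that fit ptr-6 missed, at −2.01 (limma adjusted p = 0.0523). Its other probe set, of lower mean level, passed there at −2.79 (limma adjusted p = 0.0165). grl-7 measured 6.63, 6.12 and 10.12 in adults, against 10.62 and 11.38 in larvae, and grl-5 measured 6.47, 6.07 and 9.95 in adults, against 10.26 and 11.32 in larvae. Both were absent on adult arrays 1 and 2 and present on adult array 3 and the larval arrays. ptr-18 measured 4.64, 4.89 and 8.49 in adults, against 8.17 and 9.48 in larvae, so that adult array 3 overlapped the larvae. The exception was grd-5, at 10.24, 9.79 and 10.66 in adults, against 9.44 and 11.18 in larvae, whose difference of −0.08 ± 0.55 changed sign with the naming style as a block.

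The abu and pqn genes abu-8, abu-13, abu-14 and pqn-13 had a median of −3.60, with 1 called lower, pqn-13 (6.13% of all probe sets), and all 4 called lower without adult array 3 (11.3%). abu-13 measured 5.64, 5.41 and 9.56 in adults, against 10.25 and 10.92 in larvae. The probe set of abu-8 can bind transcripts of near-identical relatives, and it measured 6.31, 5.28 and 10.14 in adults, against 9.05 and 9.84 in larvae, with adult array 3 above both larval arrays. mlt-8, required for moulting, the lipocalin-related lpr-7 and the astacin metalloprotease nas-6 had a median of −2.78. Adults lay below larvae without overlap for all 3 (29.1% of all probe sets). 0 passed (6.13%), and all 3 passed without adult array 3 (11.3%). mlt-8 measured 5.90, 8.20 and 10.65 in adults, against 10.998 and 11.90 in larvae.

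**Figure D4:**
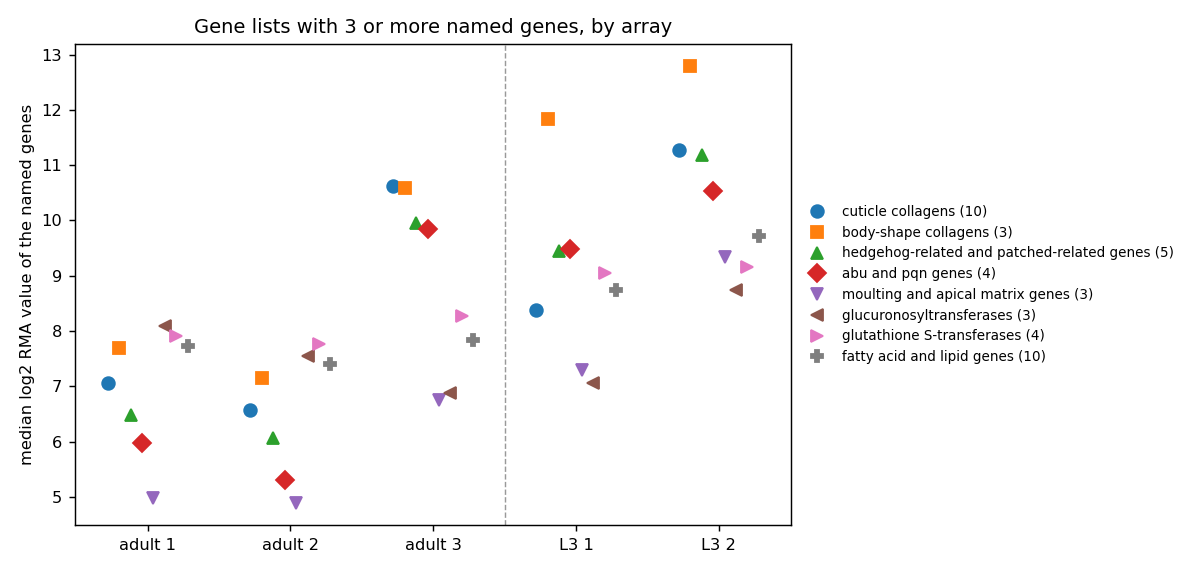
Median log2 RMA value on each array of the gene lists with 3 or more named genes, with adult arrays on the left of the dashed line and L3 larval arrays on the right. In the cuticle collagens the median is 7.06 and 6.58 on adult arrays 1 and 2 and 10.63 on adult array 3, against 8.38 and 11.27 on the larval arrays, while the glutathione S-transferases and lipid genes vary less between arrays.

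For ZK1025.3, of the larval decreased list, adult array 3 also lay nearer to the larvae than to the other adults. It measured 4.33, 4.06 and 9.96 in adults, against 10.18 and 11.02 in larvae, and was absent on adult arrays 1 and 2. Its difference was −4.49 ± 1.81 with all arrays (limma adjusted p = 0.132) and −6.41 ± 0.34 without adult array 3 (limma adjusted p = 0.000653). For the Hsp70 gene F44E5.5, the single named member of the heat shock list, whose probe sets can bind near-identical relatives, values were 7.52, 6.61 and 12.10 in adults, against 8.68 and 10.20 in larvae. Adult array 3 was above all other arrays, and a difference of −0.70 ± 1.64 became −2.38 ± 0.58 without it (limma adjusted p = 0.0337). Its other probe set had the same order of arrays, with 11.21 on adult array 3.

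Fatty acid and lipid genes moved in both directions. Of 10 named genes 8 were below their larval level, with a median of −1.02. 1 was called higher, acdh-2 (12.5% of all probe sets), and 2 lower (6.13%), and without adult array 3 these counts were 1 (17.2%) and 5 (11.3%). The called falls were acox-1.2, a peroxisomal acyl-CoA oxidase, and lbp-3, a lipid-binding protein. acox-1.2 measured 8.16, 6.65 and 7.28 in adults, against 9.18 and 9.19 in larvae, a difference of −1.82 ± 0.44 (limma adjusted p = 0.0416) that did not pass without adult array 3. lbp-3 measured 9.23, 9.09 and 9.11 in adults, against 10.02 and 9.87 in larvae, a difference of −0.80 ± 0.18 (limma adjusted p = 0.0354). Both stayed below both larval arrays on every adult array, and adult array 3 was not the highest adult array for either. The lipase gene lips-9 at −2.92 ± 0.85 and the acyl-CoA synthetase gene acs-20 at −2.85 ± 0.80 did not pass with all arrays, but did without adult array 3. fat-7, a stearoyl-CoA desaturase, differed by 0.38 and fasn-1, the fatty acid synthase, by −0.22, with overlapping stages.

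Of the detoxification genes, gst-6 and cyp-35C1 passed the test. The 4 glutathione S-transferases had a median of −0.67, with gst-13 at −0.93 ± 0.28, gst-10 at −0.42 ± 0.27 and gst-20 at −0.32 ± 0.21, of which none passed with all arrays and gst-13 passed without adult array 3. The 3 glucuronosyltransferases had a median of 0.14 and 0 calls, against 12.5% of all probe sets called higher and 6.13% lower. Without adult array 3, ugt-6 passed at −2.30 (11.3% of all probe sets called lower). ugt-44 differed by 0.14 ± 0.41 and by −0.35 after quantile normalisation, and ugt-63 by 0.33 ± 0.55 and by −0.0037 after it, so neither has a settled direction. The lysozyme gene lys-2 at −1.19 ± 0.43, the neuropeptide-like gene nlp-8 at −0.66 ± 0.31 and the transthyretin-related gene ttr-44 at −0.53 ± 0.80 did not pass, nor did srlf-19 at −2.27 ± 1.14. Without adult array 3, lys-2 at −1.61 (limma adjusted p = 0.0083) and srlf-19 at −3.43 (limma adjusted p = 0.00606) passed.

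The authors' lists differed in their adult minus larval differences. All lists were chosen on wild-type arrays that enter this comparison, so the differences can be partly fixed by the choice. The counts below describe the lists and are no evidence that list members follow stage. The larval decreased list, of probe sets lower in mutant than in wild-type larvae, held 142 probe sets. Their median adult minus larval difference was −2.21, and 130 of them (against 54.3% of all probe sets) had a difference below 0. 18 were called lower (12.7%, against 6.13% of all probe sets) and 3 higher (2.11%, against 12.5%). Without adult array 3 the count called lower was 100 (against 11.3%). Of these 142, 52 were present on adult array 3 and the larval arrays but absent on adult arrays 1 and 2 (against 2.62% of all probe sets). Larval array 2 was above larval array 1 in 136 of 142, by a median of 1.27, against 10371 of 22548 and a median of −0.04 over all probe sets. Both larval arrays were used to choose the list, so such a skew can come from the choice. The 3 rises on this list were the pair of sperm probe sets and C35A5.3. In the 12 probe sets that the authors found decreased in all larval pairs, the median was −1.05, with 3 called lower (against 6.13%), nep-1, oac-29 and lbp-3, and 1 higher (against 12.5%), C35A5.3. Leaving out adult array 3 gave 6 called lower (against 11.3%).

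The larval increased list held 44 probe sets with a median of 0.08, 25 above 0 (against 45.7% of all probe sets). 9 of them were called higher (20.5%, against 12.5%) and 1 lower (2.27%, against 6.13%), hmit-1.1. Without adult array 3 the median turned to −0.24, with 9 called higher (against 17.2%) and 5 lower (against 11.3%). vha-18, col-142, rskn-1, atgl-1 and M01H9.3 were its named rises. The adult decreased list held 9 probe sets with a median of −1.15, of which 3 were called higher (against 12.5%), among them Y51H7C.1 and acdh-2, and 3 lower (against 6.13%), nep-1, acox-1.2 and cyp-35C1. Leaving out adult array 3 gave 3 called higher (against 17.2%) and 2 lower (against 11.3%). The adult increased list held 4 probe sets, all lower in adults, with a median of −0.66 and 1 called lower (against 6.13%), F01D5.5. In this list gda-1 differed by −0.57 ± 0.22 and T04A11.4 by −0.12 ± 0.58, and neither passed.

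**Figure D5:**
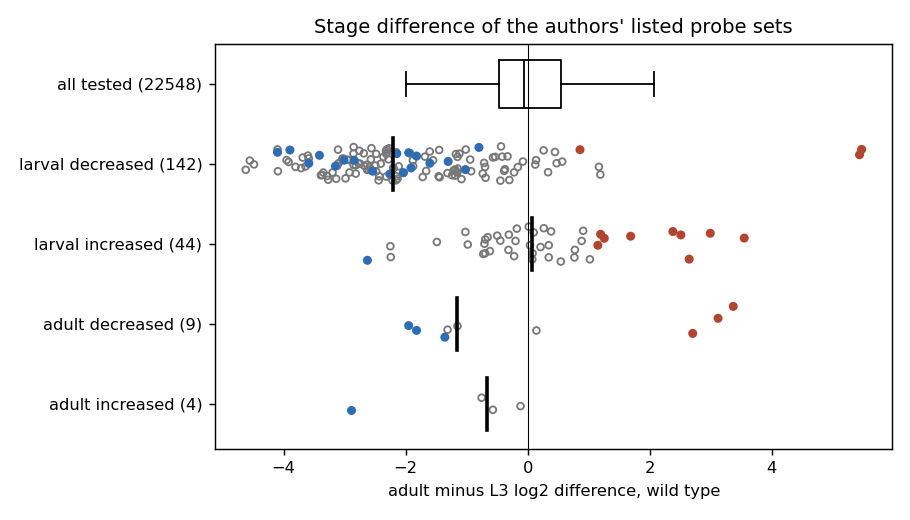
Adult minus L3 larval log2 difference in wild type for each probe set of the authors' lists (points; filled where limma called them, red for higher and blue for lower in adults) with the list median as a black bar, beside a box plot of all 22548 tested probe sets. The larval decreased list lies mostly below 0, with a median of −2.21 and the pair of sperm probe sets near 5.4, and the larval increased list is centred on 0.08.

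Some named genes had small mean differences, which do not show that the stages were equal. ketn-1, which encodes the muscle protein kettin, differed by 0.08 ± 0.40, the tubulin gene tbb-6 by 0.10 ± 0.36 and pps-1, of sulphate activation, by 0.12 ± 0.36. All 3 changed sign after quantile normalisation. pps-1 measured 9.15 on each adult array, while the larval arrays, at 8.44 and 9.62, lay on either side. The SE of each exceeded its difference, so 5 arrays set no direction for these genes.

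The largest differences of all belonged to probe sets to which the files give no gene number. Probe set 171723_x_at measured 13.66, 13.84 and 13.73 on the adult arrays, against 5.19 and 4.33 on the larval arrays, where it was absent, and was at least 506-fold higher in adults (limma adjusted p = 0.000186). Probe set 184864_at measured 12.43, 12.46 and 12.22 in adults, against 3.62 and 3.48 in larvae, and was at least 437-fold higher (limma adjusted p = 0.000123). Adult array 3 was level with the other adults for both. Among probe sets with no gene number, the largest called falls, 192712_at at −4.34 ± 1.07 (limma adjusted p = 0.0439) and 182812_at at −3.78 ± 0.95 (limma adjusted p = 0.0456), were absent on adult arrays 1 and 2 and present on the others. 192712_at measured 4.35, 4.41 and 7.65 in adults, against 10.40 and 9.21 in larvae, so adult array 3 again lay between the other adults and the larvae.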

How the data were processed

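The authors labelled total RNA of whole worms with biotin by the one-cycle 3' IVT method and hybridised 1 Affymetrix array per sample, per the labels' protocols. The deposited log2 values come from RMA (version not given), per the submitters' processing notes. Scaled signals (intensity) and detection calls came from the authors' deposited comparison tables, per the file headers, of which 76 array columns were not used here. The array scanner files, the genome build and the probe sequences were not used here, so no coordinates or sequences are given.

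limma 3.58.1 in R 4.3.3 fitted the 3 adult and 2 larval arrays without normalising again or filtering, with 3 residual degrees of freedom, 2.79 prior ones and a residual SD of 0.28 in the median. Its two-sided p-values were adjusted over 22548 probe sets (Benjamini-Hochberg), and calls needed an adjusted p under 0.05. For arrays, their number limits the precision. The script was tested on simulated data. A probe set absent on every array of a stage has only a bound there, computed against the higher of its own value and the lowest present value on each array (3.28 to 3.57).

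Gene numbers of the authors' lists were named through a RefSeq table of assembly WBcel235. Of 196 listed probe sets, 152 had 1 gene, 4 had several, 37 had no number and 3 had a number that is not in the table. The named genes were nep-1, the 12 largest called rises and falls (filled up with differences whose stages did not overlap), up to 4 of each of 24 gene lists, of which 17 had a named member, the 3 largest of each authors' list and the 6 smallest differences, 60 in all. Others were named after their values were seen. The members and lists were chosen with earlier results of these data known.

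Alternatives were quantile normalisation, median centring, 2 filters, an intensity trend, array weights, all 10 arrays, scaled signals (log2 after adding 16), a 2-fold minimum, marginal calls as present, the replicate number and the naming style as blocks, and leaving out each array. Tables were read with Python 3.11.15.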

Additional observations from a re-analysis of the deposited data

How the results depend on the processing

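The count of probe sets called higher in adults lay between 2093 and 3720 under the alternatives that kept all arrays, except the scaled signals with 508, where 30 were called lower. The count called lower, 1382, was less stable: 2120 after quantile normalisation, 917 in the upper 60% of probe sets by level, and 2460 with array weights. Leaving out 1 array in turn gave 160 to 3885 higher and 7 to 2552 lower. Without a larval array the lone other one was assumed to vary like the adults, and calls were fewest: 168 higher and 9 lower without larval array 1, and 160 and 7 without larval array 2. Without adult array 1 they were 739 and 67, and without adult array 2 they were 1459 and 233. Rises made up 94.9% and 95.8% of calls without larval array 1 and 2, and 91.7% and 86.2% without adult array 1 and 2.

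Of the listed probe sets, 15 were called higher (7.65%, against 12.5% of all probe sets) and 21 lower (10.7%, against 6.13%). In the scaled signals these counts were 6 and 1, against 508 and 30 over all probe sets. The listed count called lower was 38 after quantile normalisation, 68 with array weights and 60 with the naming style as a block. Over all probe sets it was 2120, 2460 and 982 in the same order. Leaving out 1 array in turn gave 0 to 15 higher and 0 to 107 lower. The highest of these listed counts came without adult array 3, against 3885 higher and 2552 lower over all probe sets. The lowest came without a larval array, where the calls over all probe sets were also fewest. The range therefore follows the fits and is not particular to the listed probe sets. Deviations of same-numbered adult and larval arrays from their stage means correlated at 0.059 and 0.084. The deviations of the 2 larval arrays mirror each other, so these values cannot show whether same-numbered arrays were prepared together. With the replicate number as a block, 2297 were called lower, and 98 of the listed.

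Probe sets gained in adults numbered 576 to 1088 and those lost 164 to 766 when an array was left out. The lost ones were 766 without adult array 3, 700 without larval array 1 and 384 without larval array 2, and the gained ones 1088 without larval array 2. Probe sets that differed by 2-fold without overlap numbered 2278 higher and 2722 lower in the scaled signals, against 3361 and 1677. Leaving out 1 array moved the median of the larval decreased list between −3.004 (without adult array 3) and −1.36, that of the adult decreased list between −1.46 and −0.48, that of the adult increased list between −0.92 and −0.40, and that of the larval increased list between −0.24 and 0.22.

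Among the 60 genes named by the rule, 9 with small differences changed sign, and the cause was not tested. fasn-1, named outside the rule, moved between −0.82 and 0.38 when an array was left out. After quantile normalisation ugt-63 was at −0.0037, ugt-44 at −0.35, ketn-1 at −0.11, tbb-6 at −0.050 and pps-1 at −0.36. In the scaled signals ugt-44 was at −0.85, ketn-1 at −0.37, tbb-6 at −0.68 and pps-1 at −0.21. Array weights gave −0.064 for ugt-44, −0.12 for ketn-1 and −0.024 for tbb-6. The replicate number as a block gave −0.16 for ugt-44, −0.31 for ketn-1 and −0.091 for tbb-6, the same values as leaving out adult array 3. The naming style as a block gave 0.11 for grd-5. Leaving out each array moved ugt-63 between −0.070 and 0.88, ugt-44 between −0.34 and 0.61, ketn-1 between −0.31 and 0.30, F44E5.5 between −2.38 and 0.37, ttr-44 between −1.83 and 0.76, T04A11.4 between −0.62 and 0.36, grd-5 between −0.95 and 0.79, tbb-6 between −0.40 and 0.59, and pps-1 between −0.46 and 0.71.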
